A study of Mus musculus with 25 samples.

Results

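The N1/N1 regions are the places in the genome that split DamID (SpDamID) marked when N1 (Notch1) carried both of its parts, in mK4, a mouse line of embryonic kidney mesenchyme. All regions of the deposited N1/N1 list on chromosomes 1 to 19 and X were taken, except those over 100 kb. This kept 31935 of 31938 regions, which together covered 28.3 Mb. The 3 left out were a region of 3002119 bp at the start of chromosome 11 and 2 regions on chromosome Y. The 6 SpDamID lists of the series hold 96403 distinct fragments on these chromosomes, and N1/N1 held 33.1% of them.

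Notch1 is a receptor whose intracellular part, once cut free, enters the nucleus and binds DNA through the protein RBP (CSL). MAML then joins N1 and RBP, and the acetyltransferase p300 is recruited through MAML. At some enhancers, pairs of RBP sites facing each other let 2 such complexes touch through the ankyrin repeats of N1, and genes with such paired sites respond to Notch dimers. In SpDamID the bacterial adenine methylase Dam is divided into 2 inactive parts, and methylation of GATC sites needs both parts close together. A region in these lists is therefore a fragment of the genome and not a binding site.

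The N1/N1 libraries (n = 2) carried N1-D with N1-AM-Ert2, and their strain labels are CD1 and CD2. They were set by the authors against the Dam control (n = 3 libraries titled DAM). Beside them stand N1-D with RBP-AM-Ert2, MAML-AM-Ert2 or p300-AM-Ert2 (n = 3 libraries each, strain CD1), called N1/RBP, N1/MAML and N1/p300 here. Mef2c-D with MAML-AM-Ert2 (strain label CD3) and with p300-AM-Ert2 (strain label CD1) have 1 library each. FAIRE, which recovers open chromatin, has 3 N1wt, 3 control and 1 N1wt input library, and ChIP of myc-tagged N1 has 1 library and 1 input. All libraries are from mK4 cells, and the sources used here give neither treatment nor time. Whether the differing strain labels mark a real difference between libraries is unknown. Whether N1/N1 methylation needs a dimer on DNA, rather than N1 molecules that lie close together, was not tested.

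Each list is 1 pooled set of regions, so its values have no replicate error, the depth per library is unknown, and no difference between complexes could be tested over samples. Differences below are therefore descriptions. Intervals are exact Clopper-Pearson 95% intervals, which cover counting error only and treat neighbouring regions as independent. All 6 SpDamID lists were scored against the Dam control, which enters each overlap between them. Each N1/N1 region that met another SpDamID list had identical ends there, with 0 partial overlaps in all 5 comparisons. Gene names are not given, because the coordinates are those of build mm9 and the gene tables at hand use another build.

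N1/N1 regions were long beside those of the other N1 complexes. Their median length was 754 bp (5th to 95th percentile 365 to 1819 bp), while the medians of the N1/RBP, N1/MAML and N1/p300 lists were 667, 517 and 566 bp. Regions over 1000 bp numbered 9891, 31.0% of the N1/N1 list, while N1/RBP had 15.3%, N1/MAML 23.4% and N1/p300 8.69% over this length. Of 2001 to 5000 bp there were 962 N1/N1 regions (3.01%), against 2533 of N1/MAML (15.3%). The longest N1/N1 region, on chromosome X from 166527100 to 166577698, spanned 50599 bp and also lay in the N1/MAML and N1/p300 lists.

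Counted over the distinct fragments of each length, N1/N1 was the fullest of the 6 lists between 1001 and 2000 bp. It held 69.2% of the 9235 distinct fragments of 1001 to 1500 bp and 73.0% of the 3456 of 1501 to 2000 bp. N1/RBP held 42.3 and 10.7% of these, and N1/p300 14.2 and 4.34%. Among the 32858 fragments of up to 500 bp, N1/N1 held 20.1% and N1/RBP 17.7%, N1/MAML 23.6%, N1/p300 24.8% and Mef2c/MAML 82.7%.

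Co-occupancy differed with length, as did what each list holds of all distinct fragments. Of the 6610 N1/N1 regions of up to 500 bp, 53.99% were also in N1/RBP, 62.8% in N1/p300 and 59.5% in N1/MAML, beside 17.7, 24.8 and 23.6% of distinct fragments of that length. Of the 9275 N1/N1 regions of 501 to 750 bp, 69.3% (95% interval 68.4 to 70.3%) were also N1/RBP regions, 54.8% (53.8 to 55.9%) N1/p300 regions and 33.3% (32.3 to 34.2%) N1/MAML regions, beside 35.2, 26.97 and 12.5% of distinct fragments. Of the 6391 of 1001 to 1500 bp, 40.3% (39.1 to 41.5%) were in N1/RBP, 14.5% (13.6 to 15.4%) in N1/p300 and 1% (0.772 to 1.28%) in N1/MAML, beside 42.3, 14.2 and 4.26% of distinct fragments. Of the 2522 of 1501 to 2000 bp, 12.6% (11.3 to 13.9%) were in N1/RBP, beside 10.7% of distinct fragments. Up to 750 bp the shares were thus above those of distinct fragments. So were they at 751 to 1000 bp, with 60.3% in N1/RBP, 10.4% in N1/MAML and 34.2% in N1/p300, beside 45.7, 5.43 and 23.4%. From 1001 to 1500 bp they were near or below them. N1/N1 itself held 69.2% of those fragments, and each fragment it lacks is in another list by definition. The comparison at that length therefore cannot tell whether sharing is low. Of the 962 N1/N1 regions of 2001 to 5000 bp, 18.7% were in N1/MAML, beside 73.04% of distinct fragments. The same limit holds at this length and at 1501 to 2000 bp, where N1/N1 held 73.0% of distinct fragments. Whether sharing is low there cannot be told either. How far fragment length in each library sets these shares was not tested.

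**Figure D1:**
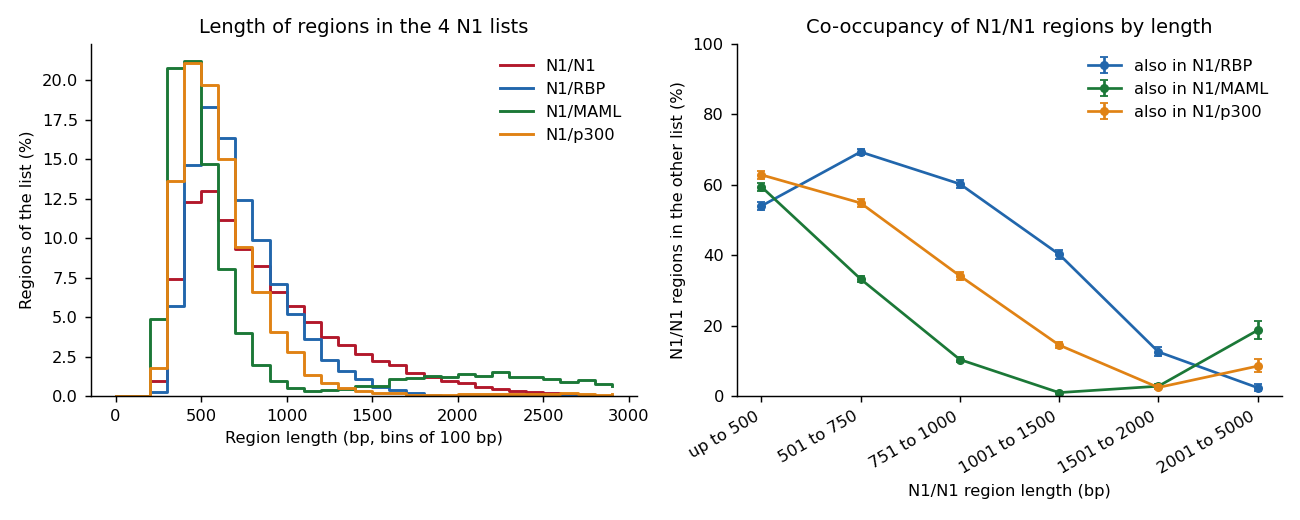
Left, the share of regions (%) in each bin of 100 bp of length for the 4 N1 lists, up to 3000 bp. Right, the share of N1/N1 regions (%) in each length class that are also in N1/RBP, N1/MAML or N1/p300, with exact 95% intervals that cover counting error only. The N1/N1 curve reaches further to the right than those of N1/RBP and N1/p300, and the share in N1/RBP is 69.3% at 501 to 750 bp and 12.6% at 1501 to 2000 bp.

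N1/N1 regions lay on every chromosome analysed, most densely on chromosomes 19 and 11. There were 22.8 per Mb spanned on chromosome 19 and 19.3 on chromosome 11, against 8.24 on chromosome 14 and 4.39 on chromosome X, with 12.4 per Mb over all. Total FAIRE regions were also dense on chromosomes 19 and 11, with 13.4 per Mb on each, against 5.04 on chromosome 14 and 2.23 on chromosome X. As a share of distinct fragments, N1/N1 was more even: 30.3% on chromosome 14 to 35.2% on chromosome 12 among autosomes, and 26.7% (95% interval 25 to 28.4%) on X. On X, N1/RBP held 18.3% of the distinct fragments, N1/MAML 15.6% and N1/p300 15.9%. Of the X regions of N1/N1, 26.0% lay in total FAIRE, against 42.1% of those on chromosome 19, and 48.2% of the X regions were in none of the 3 other N1 lists.

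In windows of 1 Mb, 2048 of 2587 windows held an N1/N1 region, with a median of 9 and a highest count of 103. The densest 10% of windows held 34.4% of N1/N1 regions, while the densest windows of each other list held 37.2% of it with N1/RBP, 37.3% with N1/MAML, 35.4% with N1/p300 and 37.4% with total FAIRE. The window with 103 was chromosome 15 from 12000000 to 12999999, where 0 of the 103 lay in FAIRE of either kind. The next 4 windows, 2 on chromosome 3 and 1 each on chromosomes 19 and 5, held 83 to 102 N1/N1 regions, and 60.8 to 69.8% of these lay in total FAIRE.

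That window belongs to a dense stretch of chromosome 15, from 8000000 to 13999999, whose limits were chosen after the values were seen. It held 394 N1/N1 regions, 65.7 per Mb and 24.8% of those on the chromosome. Of them 36 (9.14%) lay in total FAIRE, against 33.2% of the 1194 N1/N1 regions elsewhere on chromosome 15, and 21 (5.33%) lay in Notch-dependent FAIRE. The other lists were dense there too, with 269 N1/RBP, 296 N1/MAML, 278 N1/p300, 704 Mef2c/MAML, 548 Mef2c/p300 and 389 ChIP regions. Total FAIRE had 18 regions in the stretch, with a median length of 4299.5 bp and a longest of 32532 bp, against a median of 903 bp over the whole list. What goes with the density of all these lists in the stretch was not tested. Without it, 35.7% of N1/N1 regions lay in total FAIRE, against 35.3% with it.

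N1/N1 regions were often close neighbours. The median gap between neighbouring N1/N1 regions was 14230 bp, and 8445 of 31915 gaps (26.5%) were of at most 1 kb. In 4200 cases (13.2%) the next region began at the base after the last one, while N1/RBP had 12.1% such gaps, N1/MAML 8.65% and N1/p300 11.4%. Runs joined by gaps of at most 10 kb numbered 17564. Of the regions, 10734 (33.6%) stood alone, 7168 were in pairs and 14033 (43.9%) were in 3246 clusters of 3 or more. With only regions of 405 to 786 bp 23.9% were in such clusters, and with only those from the median score up 32.3%. In such clusters lay 42.2% of the N1/RBP list, 24.2% of the N1/MAML and 35.8% of the N1/p300 list. The lists differ in size, and its part in these shares was not tested.

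Clustered N1/N1 regions were more often open and more often shared. Of regions that stood alone, 23.0% lay in total FAIRE, 41.8% in N1/RBP and 17.6% in N1/MAML, with a median score of 240 and a median length of 844 bp. Of regions in clusters of 5 to 9, 48.6% lay in total FAIRE, 61.7% in N1/RBP and 33.2% in N1/MAML, with a median score of 342 and a median length of 666.5 bp. Regions in runs of 3 or more touching fragments (1855 regions) had a median score of 390, and 57.1% of them lay in total FAIRE, against 30.6% of the 24244 that touched no other. Within the 3246 clusters, 53.2% (95% interval 51.4 to 54.9%) of the regions with the highest score of their cluster lay in total FAIRE, against 34.0% (32.4 to 35.7%) of those with the lowest. Of the clusters, 2341 (72.1%) had a region in total FAIRE and 443 (13.6%) a region in Notch-dependent FAIRE. A region held by all 3 other N1 complexes was in 1893 (58.3%). Each cluster holds 3 or more regions, so these shares of clusters cannot be set against the shares of regions above. The shares to be expected for clusters of these sizes were not computed.

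**Figure D2:**
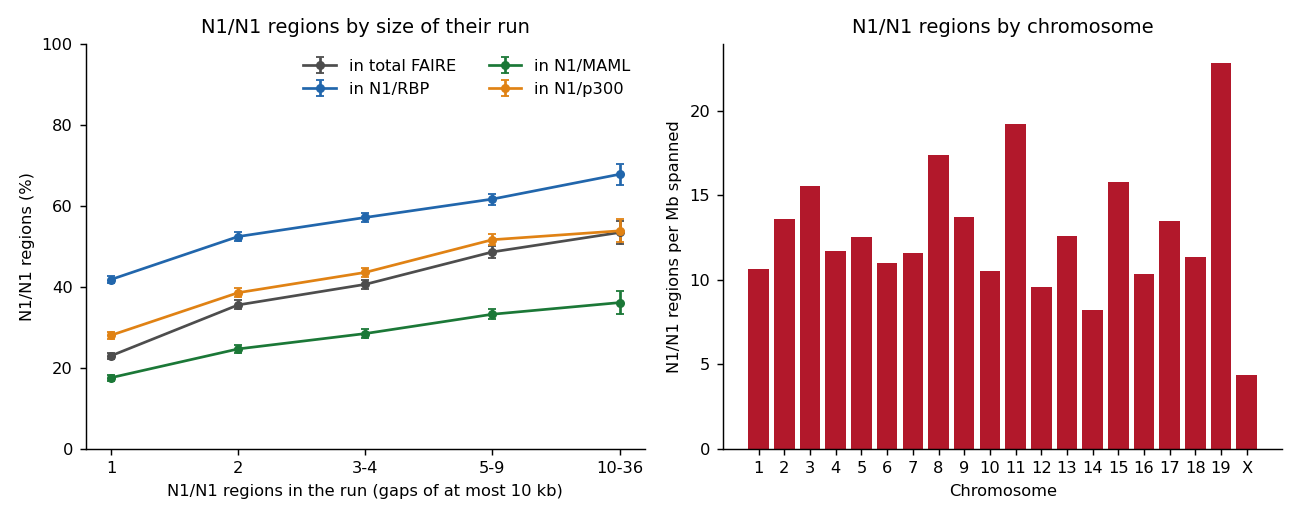
Left, the share of N1/N1 regions (%) in total FAIRE and in each other N1 list, by the number of N1/N1 regions in their run (gaps of at most 10 kb), with exact 95% intervals that cover counting error only. Right, N1/N1 regions per Mb spanned on each chromosome. Shares in total FAIRE are 23.0% for lone regions and 48.6% in runs of 5 to 9, and density is 22.8 per Mb on chromosome 19 and 4.39 on X.

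The cluster with most N1/N1 regions lay on chromosome 13 from 23593010 to 23678190, with 36 regions. Of these, 23 lay in total FAIRE, 0 in Notch-dependent FAIRE, 18 in N1/RBP, 9 in N1/MAML and 13 in N1/p300. Next came 29 regions on chromosome 19 from 5787310 to 5851428, of which 16 lay in total FAIRE and 19 in N1/RBP. On chromosome 6, from 52156504 to 52199936, there were 28 regions. Only 5 of them lay in total FAIRE, while 24 were in N1/RBP, 13 in N1/MAML and 18 in N1/p300. The cluster of 24 on chromosome 11, 96130397 to 96179368, had 7 regions in total FAIRE and 18 in N1/RBP. The fifth, with 22 regions on chromosome 15 from 12344283 to 12426175, had none in FAIRE and lay in the dense stretch described above. None of these 5 clusters had a region in Notch-dependent FAIRE.

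Over the whole list, co-occupancy was highest with N1/RBP, the largest of the other N1 lists. N1/RBP also led in each length class from 501 to 2000 bp. It did not at up to 500 bp, with 53.99% in N1/RBP, 59.5% in N1/MAML and 62.8% in N1/p300. At 2001 to 5000 bp N1/MAML led, with 18.7%. The part of list size in this order was not tested. Of the N1/N1 regions, 16630 (52.1%, 95% interval 51.5 to 52.6%) were also N1/RBP regions, 58.8% of the N1/RBP list, beside 29.3% of all distinct fragments. With the co-activator MAML, N1/N1 shared 7987 regions, 25.01% of the N1/N1 and 48.3% of the N1/MAML list, beside 17.2% of distinct fragments; from 405 to 786 bp, 37.8% of N1/N1 regions were shared with N1/MAML. With p300 it shared 12430, 38.9% of the N1/N1 and 55.6% of the N1/p300 list, beside 23.2% of distinct fragments. These backgrounds count fragments that are in at least 1 SpDamID list, since fragments in none are not in the deposited lists.

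Taken as combinations, the largest class had no other N1 complex. It held 12288 regions (38.5%), while N1/RBP alone joined N1/N1 on 5780 (18.1%) and all 3 others on 5730 (17.9%). Among the 14100 N1/N1 regions of 405 to 786 bp, 23.2% had no other N1 complex and 30.7% had all 3. There the class with all 3 was thus the larger. From the median score up, these shares were 23.9 and 28.5%. N1/RBP with N1/p300 but without N1/MAML made up 4280 (13.4%), and N1/p300 alone 1600 (5.01%). The classes with N1/MAML but not all 3 were small: 840 with N1/RBP, 820 with N1/p300 and 597 with N1/MAML alone. Regions in no other N1 list had a median length of 1050.5 bp, and 6580 of them (53.5%) were over 1000 bp, against 75 (1.31%) of the 5730 held by all 3.

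The Mef2c complexes, which hold no Notch protein, followed the same order. Among N1/N1 regions in no other N1 list, 18.7% lay in a Mef2c list, against 94.4% of those in all 3. These shares also moved with length: they were 54.3 and 97.01% at up to 500 bp, and 41.4 and 94.97% at 501 to 750 bp. Of the 12288, 9992 were in no other SpDamID list of any kind. Over all N1/N1 regions, 42.2% lay in Mef2c/MAML, beside 52.3% of distinct fragments, and 27.2% in Mef2c/p300, beside 29.8%. Up to 1500 bp the direction differed with length and between these lists. At up to 500 bp, 80.98% of N1/N1 regions lay in Mef2c/MAML, beside 82.7% of distinct fragments. At 501 to 750 bp these shares were 67.8 and 59.3%, and at 751 to 1000 bp 28.2 and 23.4%. At 1001 to 1500 bp they were 1.28 and 1.85%. For Mef2c/p300 they were 27.1 and 18.6% at up to 500 bp, and 45.7 and 44.5% at 501 to 750 bp. They were 32.1 and 43.6% at 751 to 1000 bp, and 10.05 and 17.7% at 1001 to 1500 bp. The limit given above for N1/N1 sharing holds here at every length, since each fragment that N1/N1 lacks is in another list. Where a share lies below that of distinct fragments, it therefore cannot tell whether sharing with a Mef2c list is low. Regions over 1000 bp were 31.0% of the N1/N1 list and 0.435% of Mef2c/MAML.

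Open chromatin increased with the number of other N1 complexes. Total FAIRE held 19.03% (95% interval 18.3 to 19.7%) of N1/N1 regions in no other N1 list, 34.4% (33.4 to 35.5%) of those in 1, 46.3% (45.01 to 47.6%) of those in 2 and 60.2% (58.9 to 61.4%) of those in all 3. It held 19.3% of all distinct fragments and 11.4% of the 64468 that N1/N1 lacks. The order was the same within the length classes up to 2000 bp, counting up to 2 other lists from 1501 bp on. It was not among those of 2001 to 5000 bp, where the shares were 21.7, 25.8 and 12.3% with 0, 1 and 2 other lists (760, 132 and 57 regions). Among N1/N1 regions of 501 to 750 bp the shares were 17.03, 30.3, 42.9 and 59.1% from none to 3 other lists. Among those of 1001 to 1500 bp they were 18.5, 36.4, 56.6 and 64.0%, the last from 50 regions. By class, N1/MAML with N1/p300 (51.5%) and N1/RBP with N1/p300 (47.2%) stood above N1/RBP with N1/MAML (36.4%). Over whole lists, total FAIRE held 35.3% of N1/N1, 36.5% of N1/RBP, 37.9% of N1/MAML and 37.7% of N1/p300 regions.

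**Figure D3:**
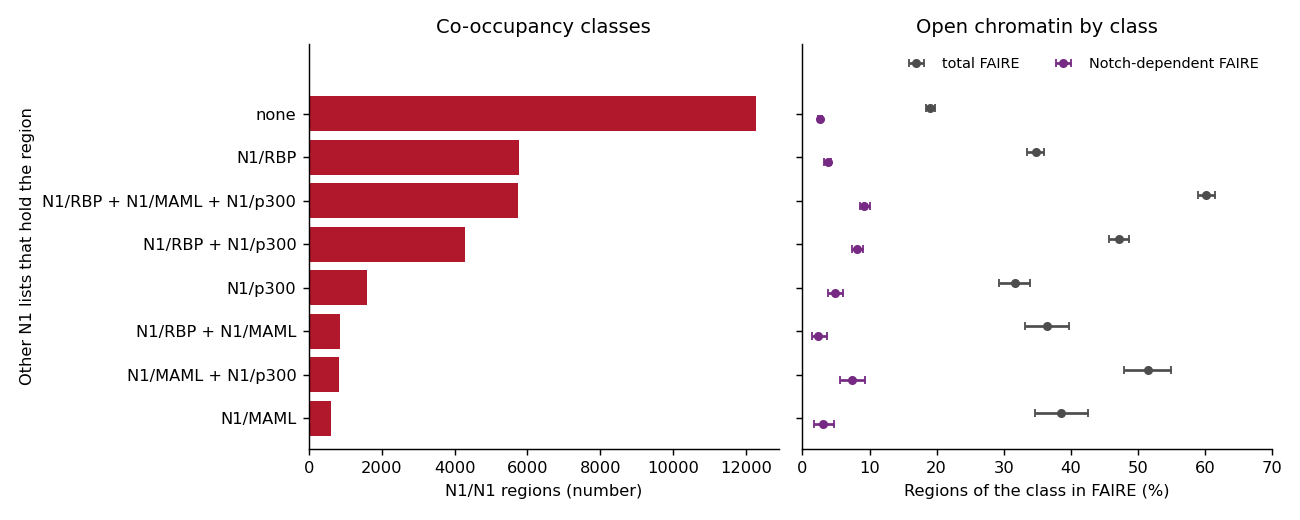
Left, the number of N1/N1 regions in each combination of the 3 other N1 lists, from none to all 3. Right, the share of each class (%) in total and in Notch-dependent FAIRE, with exact 95% intervals that cover counting error only. The class with no other complex is the largest, at 12288 regions, and has 19.03% in total FAIRE, while the class with all 3 has 60.2%.

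Notch-dependent FAIRE, the open regions that the authors call dependent on Notch, held 1589 N1/N1 regions, 4.98% (95% interval 4.74 to 5.22%), beside 2.8% of distinct fragments. It held 5.24% of the N1/RBP list, 5.34% of N1/MAML and 6.52% of N1/p300. By class of N1/N1 regions, the share was 9.25% with all 3 others, 8.13% with N1/RBP and N1/p300, 7.32% with N1/MAML and N1/p300, and 4.88% with N1/p300 alone. Without p300 it was 3.75% with N1/RBP alone, 3.02% with N1/MAML alone, 2.38% with N1/RBP and N1/MAML, and 2.59% with none. The 4 classes with N1/p300 thus lay above the 4 without it, although the interval of N1/p300 alone (3.87 to 6.05%) overlapped those of N1/RBP alone (3.28 to 4.28%) and of N1/MAML alone (1.8 to 4.72%). Of the Notch-dependent FAIRE regions, N1/N1 marked 16.7% of the 1017 that no other N1 complex marked, 46.9% of the 426 with 1, 73.9% of the 422 with 2 and 92.3% of the 531 with all 3.

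Where N1/N1 marked a FAIRE region it mostly did so with a single fragment. Of the 1172 Notch-dependent FAIRE regions marked, 816 held 1 N1/N1 region, 293 held 2 and 63 held 3 or more. Of the 7224 marked regions among other total FAIRE, 5055 held 1, 1696 held 2 and 473 held 3 or more. The share marked increased with the MACS score of the FAIRE region: 59.6% in the highest and 39.4% in the lowest 25% of Notch-dependent FAIRE scores, and 48.2 and 35.0% in those of other total FAIRE. N1/N1 regions in Notch-dependent FAIRE had a median score of 373, those in other total FAIRE 359 and those outside FAIRE 247. N1 ChIP held 0.881% (0.482 to 1.47%) of the first, 4.23% (3.84 to 4.65%) of the second and 0.902% (0.778 to 1.04%) of the third. It held 1.41% of distinct fragments. The first share rests on 14 regions, of which 5 are in 1 cluster on chromosome 2 described below. Over whole lists N1 ChIP held 1.92% of N1/N1, 2.74% of N1/RBP, 4.11% of N1/MAML and 3.16% of N1/p300 regions. These shares moved with length: at up to 500 bp they were 4.01, 5.41, 5.37 and 4.67% in the same order. For N1/N1 regions of 1001 to 1500 bp the share was 0.407%.

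Away from open chromatin, N1/N1 regions thinned out over about 3 kb. Per 1000 Notch-dependent FAIRE regions, 459 N1/N1 regions had their centre within 500 bp of the FAIRE centre and 219 from 500 to 1000 bp. There were 54.7 from 3000 to 3500 bp and 35.1 from 9500 to 10000 bp. Around other total FAIRE regions the counts were 351, 219, 57.2 and 38.9 at the same distances. The median N1/N1 score in the first 3 bins was 390, 338 and 309.5 around Notch-dependent centres, and 381, 325 and 306 around the others. Further out around Notch-dependent centres it lay between 276.5 and 394, the last from 5500 to 6000 bp and above the first bin. The other N1 lists thinned out too. Per 1000 Notch-dependent FAIRE regions, N1/RBP had 443 within 500 bp and 53.8 from 3000 to 3500 bp. N1/MAML had 306 and 25.9 at these distances, and N1/p300 459 and 48.4.

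**Figure D4:**
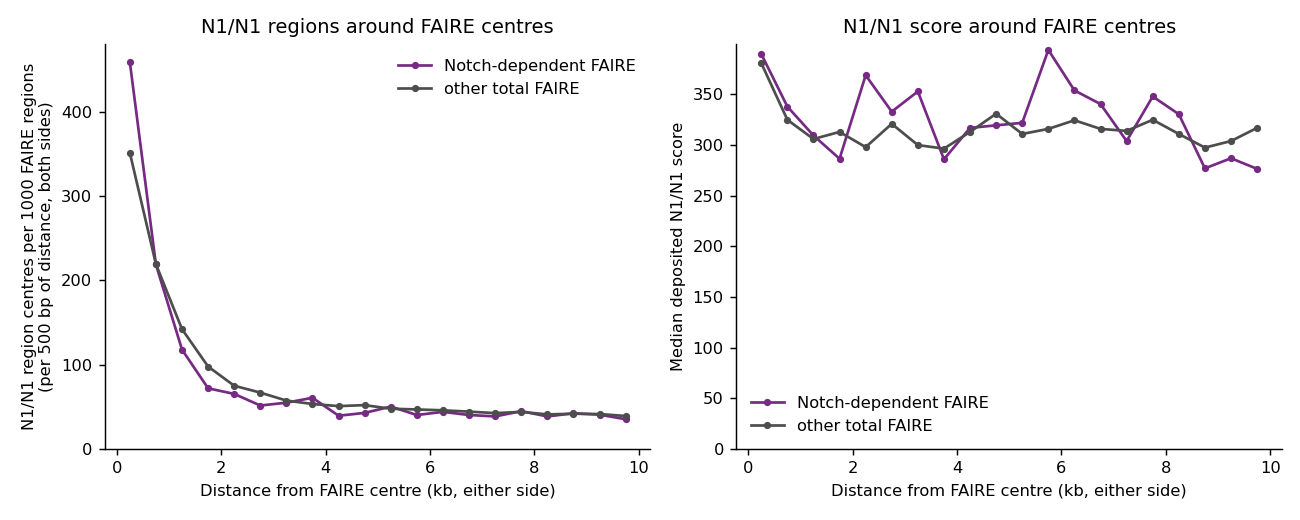
Left, N1/N1 region centres per 1000 FAIRE regions in bins of 500 bp of distance from the FAIRE centre, both sides summed, for Notch-dependent and other total FAIRE. Right, the median deposited N1/N1 score in the same bins. Counts in the first bin are 459 and 351 per 1000, and 54.7 and 57.2 in the bin from 3000 bp.

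In all, 14325 N1/N1 regions (44.9%) lay in or within 1 kb of total FAIRE and 19721 (61.8%) within 10 kb. The 3242 regions (10.2%) over 100 kb away had a median score of 243, and 56.0% of them were in no other N1 list, against 20.7% of those in FAIRE. Beyond 100 kb lay 8.66% of the N1/RBP list, 14.4% of the N1/MAML and 11.2% of the N1/p300 list.

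N1/N1 regions with high scores were more often open and more often shared. The score is a whole number per region for N1/N1 over Dam, and it ran from 1 to 851 with a median of 285. In the highest 10% of scores (533 to 851), 62.8% (95% interval 61.1 to 64.5%) of regions lay in total FAIRE and 9.43% (8.44 to 10.5%) in Notch-dependent FAIRE. In the lowest 10% (1 to 68), these shares were 22.9% (21.4 to 24.3%) and 2.85% (2.31 to 3.48%). N1/RBP held 84.1% of the highest and 30.8% of the lowest group, N1/MAML 54.8 and 10.8%, and N1/p300 79.2 and 18.7%. In the highest group 10.2% of regions were in no other N1 list, against 59.0% in the lowest.

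**Figure D5:**
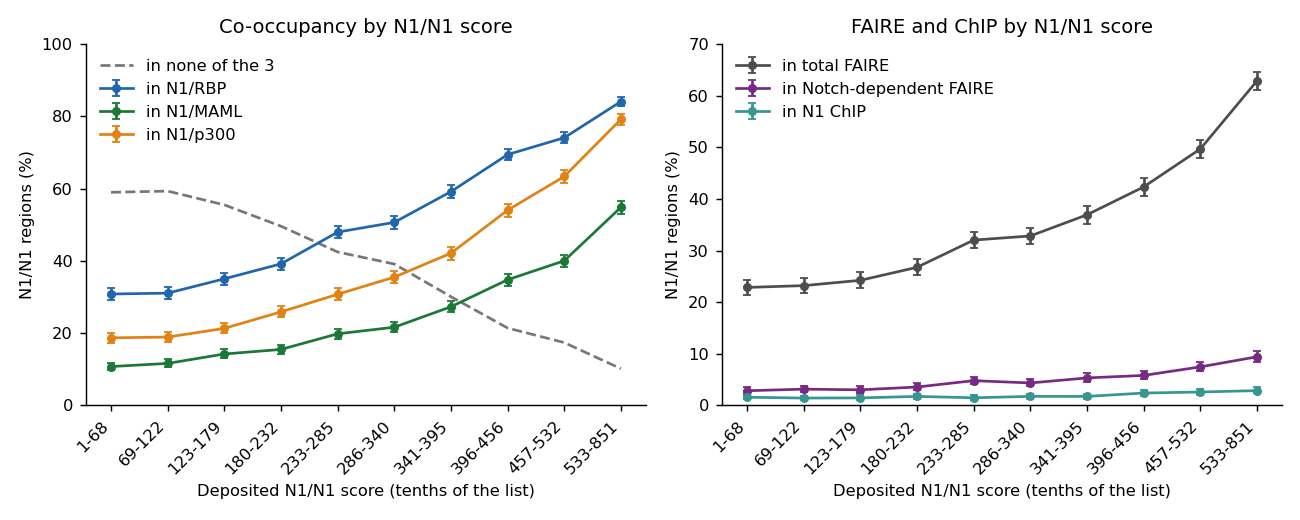
Left, the share of N1/N1 regions (%) in each other N1 list, and in none of the 3, by 10 groups of about equal size of the deposited N1/N1 score. Right, the share in total FAIRE, Notch-dependent FAIRE and N1 ChIP. Bars are exact 95% intervals that cover counting error only. Total FAIRE holds 22.9% of the lowest and 62.8% of the highest group, and N1/RBP 30.8 and 84.1%.

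The 10 highest N1/N1 scores lay on 3 chromosomes. Of these regions, 6 are in 1 cluster on chromosome 2, 26315080 to 26322115, and a further 1 is at 26358511 to 26359136. No gene was assigned to these positions, so whether they lie in a gene of the proteins that carried the Dam parts was not tested. The Notch-dependent FAIRE region over 26315080 to 26316404 has a MACS score of 2467.42, beside a median of 132.11 in that list. The cluster has 7 N1/N1 regions, with scores of 649 to 851, and 6 of the 7 lie in Notch-dependent FAIRE, 5 in N1 ChIP and 2 in Mef2c/MAML. Its top region, 26320457 to 26321282, scored 851 for N1/N1, with N1/RBP at 440, N1/MAML at 865 and N1/p300 at 495. The fragment next to it, 26320207 to 26320456, is 250 bp long and scored 832 for N1/N1, with N1/RBP at 795, N1/MAML at 845 and N1/p300 at 795. The region at 26321427 to 26322115 scored 760 for N1/N1 and 791 for N1/MAML and was in neither N1/RBP nor N1/p300. Without the cluster, the shares of N1/N1 regions in the 3 other N1 lists, in FAIRE and in N1 ChIP stayed within their intervals. The cluster is only 7 of 31935 regions, too few to move these shares far.

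The rest of the 10 lay on chromosomes 15 and 3. On chromosome 15, 13205064 to 13206207 scored 766 for N1/N1, 532 for N1/RBP and 589 for N1/p300, was not in N1/MAML, and lay 7488 bp from the nearest total FAIRE region. Also on chromosome 15, 13139868 to 13140308 scored 761 for N1/N1, with N1/RBP at 733, N1/MAML at 758 and N1/p300 at 756. Both are in the dense stretch described above. On chromosome 3, 137215733 to 137216281 scored 754 for N1/N1, with N1/RBP at 696, N1/MAML at 718 and N1/p300 at 752, and lay in a total FAIRE region that is not called Notch-dependent.

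Regions in Notch-dependent FAIRE that all 4 N1 complexes mark numbered 530, 1.66% of the N1/N1 list. Of these, 41 were in no Mef2c list and 11 were in N1 ChIP, and 5 of the 11 are in the chromosome 2 cluster. Of the 10 of these 530 with the highest N1/N1 score, 5 are in the chromosome 2 cluster and 1 is the chromosome 15 region at 13139868. The remaining 4 lay on 4 chromosomes. On chromosome 1, 40185450 to 40186490 scored 753 for N1/N1, with N1/RBP at 661, N1/MAML at 329 and N1/p300 at 635. On chromosome 18, 20711755 to 20712600 scored 748 for N1/N1, with N1/RBP at 718, N1/MAML at 712 and N1/p300 at 763. The chromosome 5 region, 38648903 to 38649395, scored 743 for N1/N1 and 778 for N1/p300, and the chromosome 13 region, 112815113 to 112815764, scored 732 for N1/N1 and 707 for N1/p300. None of these 4 lay in N1 ChIP.

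High scores were also found where no other N1 complex was called. The 10 highest scores in this class ran from 680 to 752, all on regions of 1513 to 2710 bp, and all 10 were in no Mef2c list either. At 1501 to 2000 bp, 84.9% of N1/N1 regions were in no other N1 list, and at 2001 to 5000 bp 79.0%. Mef2c/MAML held 0.868 and 0.519% of all distinct fragments of these length classes, and Mef2c/p300 1.1 and 1.04%. Absence from these lists thus says nothing particular to these 10. The first, on chromosome 16 from 38394041 to 38396361, scored 752 and spans 2321 bp. It lay within 1 Notch-dependent FAIRE region, 38393637 to 38397017, with a MACS score of 194.75. It was the only one of the 10 in Notch-dependent FAIRE, while 5 of the 10 lay in total FAIRE. The second, on chromosome 2 from 36112708 to 36115047, scored 734 and lay 119946 bp from the nearest total FAIRE region, inside a cluster of 7 N1/N1 regions. In all, 318 of the 12288 regions with no other N1 complex lay in Notch-dependent FAIRE.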

How the data were processed

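The deposited files are 9 lists of regions, each pooled over libraries; per the submitters' processing notes, mm9 is the build. The 6 SpDamID lists give every region a score, a whole number, and name DAM and a minimum confidence of 0.999, per the file headers. FAIRE regions carry the MACS score, per the file headers. The ChIP table was deposited by the authors with a ChIP signal, an input signal and their ratio per region. Lists were matched to complexes by initials, since no label spells the short names out. The sources used here name no aligner version.

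An overlap of at least 1 bp made a region shared, on 1-based positions; FAIRE starts were shifted by 1 base. Regions over 100 kb and chromosome Y were left out of every list. Intervals came from scipy 1.17.1, tables from pandas 2.3.3. No p-value was computed. Overlap and cluster functions, tested on simulated data, gave 0 differences from a plain loop.

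Named regions are the 10 highest N1/N1 scores of the list, in Notch-dependent FAIRE with all 3 other N1 lists, and with none of these, and the 5 clusters with most regions. Members and settings were chosen with earlier results of these data known. Alternatives were stricter overlap, centre overlap, the upper part of the list by score, a common length window, autosomes only, merged regions and other cluster gaps. Alternatives chosen after seeing the data left out the chromosome 2 cluster, the chromosome 15 stretch or regions over 1000 bp.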

Additional observations from a re-analysis of the deposited data

How the results depend on the processing

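Leaving out chromosome X or the chromosome 15 stretch kept all 10 shares and medians recomputed within their intervals. So did leaving out the chromosome 2 cluster, whose 7 regions are too few to move them far. With regions from the median score up, N1/N1 shares were 67.2% in N1/RBP, 35.6% in N1/MAML, 54.6% in N1/p300, 23.9% in none of these, 28.5% in all 3, 44.7% in total FAIRE, 6.45% in its Notch-dependent kind, 2.28% in N1 ChIP and 32.3% in clusters of 3 or more, with a median length of 727 bp. In the length window of 405 to 786 bp the same shares were 67.1, 37.8, 56.0, 23.2, 30.7 and 38.7% up to total FAIRE. They were 2.70% in N1 ChIP and 23.9% in clusters. Without regions over 1000 bp they were 62.2, 34.7, 51.5, 25.9, 25.7, 39.2 and 5.31% up to Notch-dependent FAIRE. With regions within 500 bp merged, shares were 53.4% in N1/RBP, 27.2% in N1/MAML, 40.02% in N1/p300, 20.8% in all 3, 33.1% in total FAIRE, 2.78% in N1 ChIP and 4.70% in Notch-dependent FAIRE, with a median length of 982 bp. Asking for an overlap of 50% of the smaller region gave 26.5% in total and 3.80% in Notch-dependent FAIRE, and asking for the N1/N1 centre gave 24.9 and 3.44%. Cluster gaps of 5 and 20 kb put 33.6 and 57.8% in clusters. The cause of these moves was not tested. No paired analysis was possible because each list is pooled and carries no value per library; for the same reason no library could be left out. Depth per library is unknown.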
